A study of Mus musculus with 9 samples.

Results

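The markers followed here across 9 mouse liver arrays belong to the endothelium that lines the vessels of the organ, and are Stab1, Stab2, Lyve1, Clec4g, Kdr, Flt1, Tek and Pecam1. They were taken by gene name, 8 genes of the 16792 tested, and 19 of the 41174 gene probes of the array carry them. Of the 19 probes, 14 were kept, meaning that every array of 1 or more groups measured them well above background; 24273 probes were kept in all. The livers were of male C57BL/6 mice aged 3 months, in 3 groups of 3 arrays: untreated, treated with AAV-GFP, and treated with AAV-hGRβ. An adeno-associated virus (AAV) is a small vector that carries a gene into tissue; AAV-GFP carries green fluorescent protein and is the vector control, and AAV-hGRβ carries human glucocorticoid receptor β, a splice form that does not bind the usual glucocorticoids. The labels give neither the promoter, serotype nor dose of the vectors, nor the time after treatment, and the transgenes were not analysed here. They do not say that the replicates were separate animals, so every p-value measures only the spread between these samples, which may be technical.

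Liver sinusoids are lined by endothelial cells that are perforated, lack a regular basement membrane and clear waste molecules from blood through scavenger receptors. Vascular endothelial growth factor (VEGF), made largely by hepatocytes, acts on these cells through the receptor tyrosine kinases Kdr and Flt1, and angiopoietins act through Tek. Stab1, Stab2 and Lyve1 bind waste ligands or hyaluronan, Clec4g is a sugar-binding lectin of sinusoidal endothelium, and Pecam1 is an adhesion molecule of endothelial junctions that platelets and leukocytes also carry.

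The promoters below are those of the 4 markers whose AAV-hGRβ arrays lay wholly below another group. Each is the 250 bases before the gene's start in RefSeq's GRCm38.p6 table, read on the gene's strand: Stab2 at chr10:87007943-87008192 (minus strand), Clec4g at chr8:3720652-3720901 (minus), Flt1 at chr5:147726012-147726261 (minus) and Tek at chr4:94739039-94739288 (plus). Capitals mark AGGAAG or CGGAAG on either strand, letters that ETS factors, a family with central members in endothelium, recognise; adjoining matches run together.
Stab2: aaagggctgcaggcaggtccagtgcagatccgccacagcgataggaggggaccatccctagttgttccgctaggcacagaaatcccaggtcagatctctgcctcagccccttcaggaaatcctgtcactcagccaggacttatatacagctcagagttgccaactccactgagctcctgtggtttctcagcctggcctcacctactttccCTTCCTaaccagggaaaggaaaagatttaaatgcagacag
Clec4g: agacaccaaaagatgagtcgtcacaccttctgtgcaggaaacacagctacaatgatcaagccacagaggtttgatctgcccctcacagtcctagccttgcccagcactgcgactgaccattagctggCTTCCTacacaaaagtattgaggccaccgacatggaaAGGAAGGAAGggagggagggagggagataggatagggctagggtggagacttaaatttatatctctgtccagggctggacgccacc
Flt1: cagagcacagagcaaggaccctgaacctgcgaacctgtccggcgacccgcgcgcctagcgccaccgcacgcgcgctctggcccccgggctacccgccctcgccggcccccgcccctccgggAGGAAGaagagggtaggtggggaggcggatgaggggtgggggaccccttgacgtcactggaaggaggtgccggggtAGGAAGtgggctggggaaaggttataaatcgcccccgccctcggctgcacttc
Tek: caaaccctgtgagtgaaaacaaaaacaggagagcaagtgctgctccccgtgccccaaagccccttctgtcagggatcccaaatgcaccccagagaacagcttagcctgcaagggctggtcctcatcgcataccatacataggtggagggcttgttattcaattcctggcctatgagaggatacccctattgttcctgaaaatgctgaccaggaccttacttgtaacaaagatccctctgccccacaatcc
Flt1 held 2 matches, Stab2 held 1, Clec4g held 3 with 2 of them overlapping, and Tek held 0. The table had promoters for 6 of the 8 markers, and 4 of the 6 held a match; the same letters occurred in 39.2% of the 32851 promoters of that length. AGATAA or TGATAA, letters of GATA factors, occurred in 0 of the 6 and in 16.6% of all promoters. A palindromic glucocorticoid response element occurred in 0 of the 6 and in 0.387% of all, and an interferon-stimulated response element in 0 of the 6 and in 2.98% of all, both strands searched. A match is a description of these letters and no evidence of binding, and the absence of one concerns this window only.

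Values below are log2 spot intensities after background subtraction, set to 0 at the 75th percentile of their array; levels of different probes are not comparable. The share of gene spots well above background ran from 54.0% to 82.0% over the 9 arrays, and Pearson's r between arrays within a group from 0.973 to 0.988 over the tested genes. The arrays were scanned on 2 days; untreated replicate 2, AAV-GFP replicate 3 and AAV-hGRβ replicate 1 were scanned on day 2, and the other 6 arrays on day 1. On day 1 the 2 arrays of each group shared a slide that held no other group, so that slide and group cannot be told apart in any value within day 1. On day 2, AAV-GFP replicate 3 and AAV-hGRβ replicate 1 shared a slide, and untreated replicate 2 was on another. No untreated array shared a slide with a treated array, so slide and group cannot be told apart in any comparison with untreated, on either day. Between AAV-hGRβ and AAV-GFP, 151 genes passed an adjusted p of 0.05 (limma, Benjamini-Hochberg), 138 of them higher. With arrays scaled to their median in place of the 75th percentile this was 95 genes with 77 higher. Between AAV-hGRβ and untreated 551 passed, 420 of them higher (587 with 329 higher under median scaling), and between AAV-GFP and untreated 0 passed, with 1648 genes at an unadjusted p under 0.05. All 10 hepatocyte markers were tested, with a summed level of 11.64 to 12.38 on the log2 scale. Each of the 8 endothelial markers had a probe well above background on all 9 arrays, and this probe stands for the gene below.

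AAV-hGRβ was compared with AAV-GFP to separate the transgene from the vector. None of the 8 endothelial markers changed past the threshold (0 of 8, limma with Benjamini-Hochberg adjustment), against 0.899% of all genes. All 8 had a lower mean with AAV-hGRβ under the main scaling, but only 3 of 8 when the background was corrected with normexp, a model of signal plus background; Stab1, Stab2, Clec4g, Kdr and Flt1 then moved to between 0.04 and 0.23. With local backgrounds above the 95th percentile of their array replaced by its median background before normexp, all 8 were lower again, with a median of -0.32. The 8 differences lay between -0.89 and -0.17 on the log2 scale with a median of -0.34, beside 0.02 for all genes, of which 47.3% lay below 0. Adjusted p-values ran from 0.316 to 0.921, and 2 of 8, Tek and Clec4g, had an unadjusted p under 0.05, against 11.7% of all genes. For the same 2 the arrays of the groups did not overlap, with AAV-hGRβ lower, against 6.42% of all genes. In whole liver, fewer endothelial cells and less of these RNAs per cell cannot be told apart.

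Against untreated liver, 0 of 8 markers passed, while 3.28% of all genes did. In this comparison 6 of 8 markers were lower in AAV-hGRβ, where 43.5% of all genes lay below 0, and 2 were higher, Lyve1 and Pecam1, with a median difference of -0.24 beside 0.09 for all genes; with normexp 4 were lower, and with arrays scaled to their median all 8 were, beside a median of -0.24 for all genes. Flt1, Tek and Stab2 had an unadjusted p under 0.05 (3 of 8, against 25.5% of all genes) and lay wholly below the untreated arrays (3 of 8, against 14.6% of all genes). The AAV-GFP and untreated livers, which show the vector without the receptor, differed in 0 of 8 markers past the threshold, against 0% of all genes, and 0 of 8 had an unadjusted p under 0.05, against 9.81% of all genes. There 5 markers were higher with AAV-GFP and 3 of 8 lower (46.6% of all genes lay below 0), with a median of 0.18, and Stab2 and Flt1 lay below untreated without overlap (2 of 8, against 9.15% of all genes). The comparisons share arrays and are not independent of each other.

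**Figure D1:**
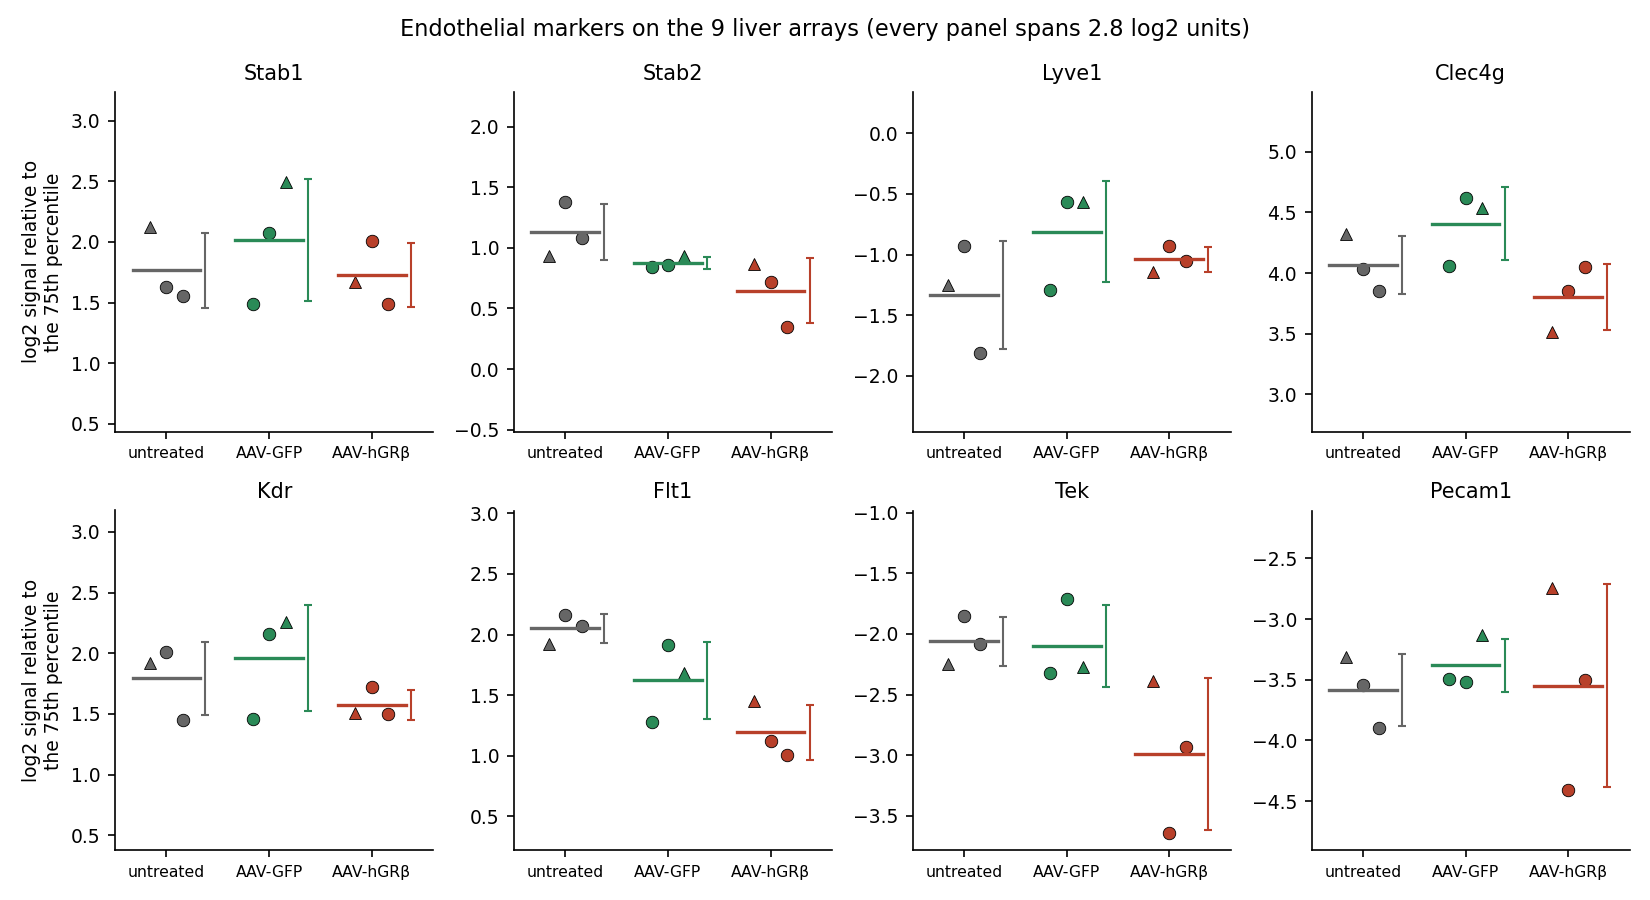
Level of each endothelial marker on each array, as log2 signal relative to the array's 75th percentile; circles are arrays scanned on day 1 and triangles on day 2, horizontal lines are group means and vertical bars are 1 SD either side (n = 3). The AAV-hGRβ mean is the lowest of the 3 for Stab1, Stab2, Clec4g, Kdr, Flt1 and Tek; its arrays lie below both other groups for Tek, below untreated for Stab2 and Flt1, and below AAV-GFP for Clec4g. With normexp the AAV-hGRβ mean is above the AAV-GFP mean for Stab1, Stab2, Clec4g, Kdr and Flt1.

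Flt1, the VEGF receptor that binds the ligand tightly and restrains signalling through Kdr, showed the lowest p of the 8 between AAV-hGRβ and untreated. Its level was 1.92, 2.16 and 2.07 on untreated replicates 2, 3 and 4. It was 1.28, 1.91 and 1.68 on AAV-GFP replicates 1, 2 and 3, and 1.45, 1.12 and 1.01 on the AAV-hGRβ replicates. The 3 untreated arrays were the highest, the AAV-hGRβ arrays all lay below them, and AAV-GFP replicate 1 fell within the AAV-hGRβ range. The means were 2.05 ± 0.12 (SD, n = 3) untreated, 1.62 ± 0.32 with AAV-GFP and 1.19 ± 0.23 with AAV-hGRβ. Flt1 in AAV-hGRβ was 0.552 times the untreated level (95% interval 0.397 to 0.767; log2 difference -0.86, SE 0.21), with an adjusted p of 0.0615 by limma. That value lies just outside the threshold, and 5 of 22 alternative analyses put it inside. Those 5 called 703 to 4770 genes in all, against 551 in the main analysis. Over the 22 the difference ran from -1.19 with median scaling to -0.13 with the mean of the gene's probes, and the adjusted p from 0.0314 to 0.718. With normexp it was -0.46 (adjusted p 0.693), under a random slide term -0.80 (0.317), and without untreated replicate 2, the only single array whose omission passed it, -0.92 (0.0458). Within day 1 the difference was -1.05 and between the single arrays of day 2 it was -0.47. Against AAV-GFP, Flt1 differed by -0.43 (95% interval -0.90 to 0.04, adjusted p 0.48), and AAV-GFP against untreated differed by -0.43 as well (adjusted p 0.489).

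Kdr is the main signalling receptor for VEGF in endothelium. Its level was 1.92, 2.01 and 1.45 untreated, 1.46, 2.16 and 2.26 with AAV-GFP, and 1.51, 1.72 and 1.5 with AAV-hGRβ. The groups overlapped, and AAV-GFP replicates 2 and 3 were the highest arrays. The difference of AAV-hGRβ from AAV-GFP was -0.38 (SE 0.25, adjusted p 0.638 by limma) and from untreated -0.21 (SE 0.25, adjusted p 0.598), beside -0.43 and -0.86 for Flt1. The 95% interval against untreated, -0.78 to 0.35, overlaps that of Flt1, and a difference between the 2 receptors was not tested.

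Tek, the receptor through which angiopoietins keep vessels stable, had the largest difference among the 8 on its main probe. It read -2.25, -1.85 and -2.08 untreated and -2.32, -1.71 and -2.27 with AAV-GFP. On the AAV-hGRβ arrays it read -2.39, -3.64 and -2.93, below every other array. Replicate 2 was by far the lowest, and replicate 1 lay close to the lowest AAV-GFP array. AAV-hGRβ was 0.541 times AAV-GFP (95% interval 0.328 to 0.892; log2 difference -0.89, SE 0.32; unadjusted p 0.0214, adjusted p 0.316 by limma). It was 0.525 times untreated (log2 difference -0.93, SE 0.32, adjusted p 0.127). Against AAV-GFP the difference was -1.27 within day 1 and -0.12 between the single arrays of day 2, and against untreated -1.32 and -0.15; a difference between days was not tested. On day 1 alone the difference from untreated had an adjusted p of 0.0366 by limma. That setting called 4770 genes in all, against 551 in the main analysis. There, as in every comparison with untreated, slide and group cannot be told apart. With slide as a random block over all arrays the Tek difference from untreated was -0.76 (adjusted p 0.514, limma).

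**Figure D2:**
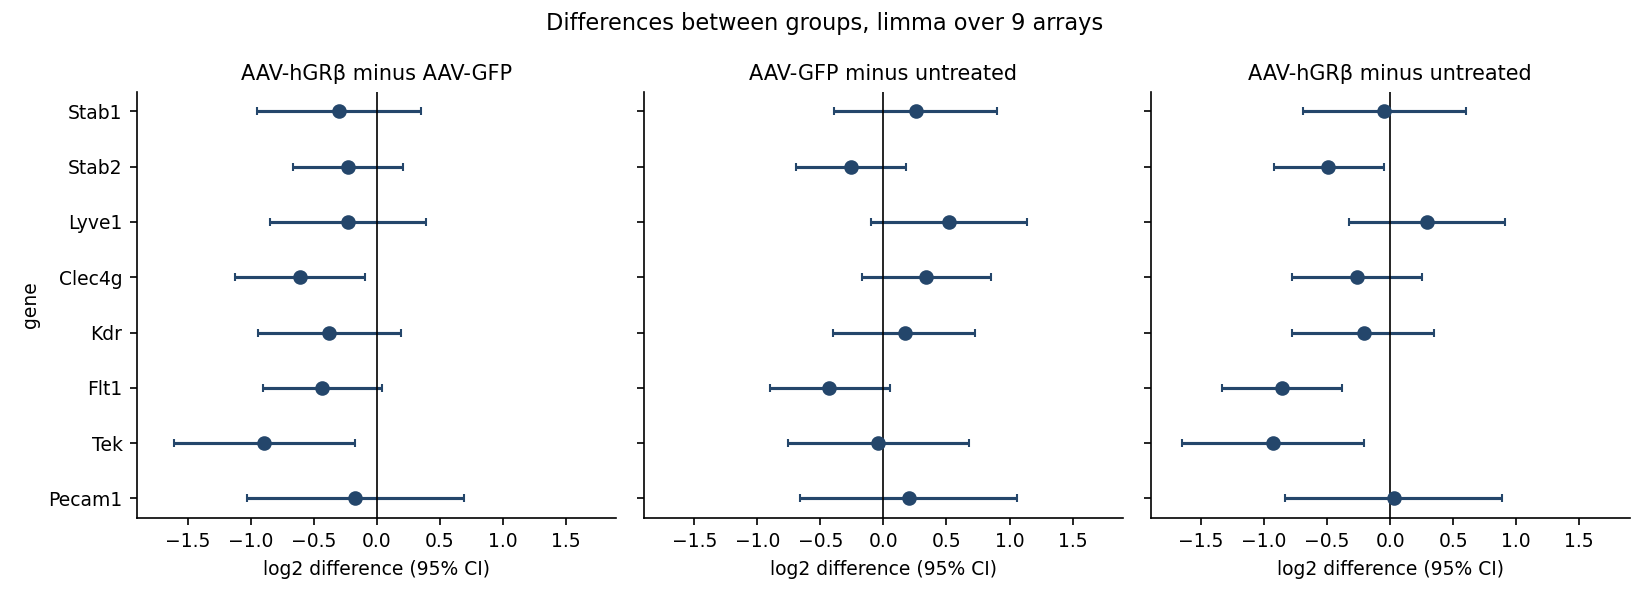
Log2 difference between groups for each endothelial marker with its 95% confidence interval (limma over 9 arrays, 3 per group). The intervals of Tek and Clec4g against AAV-GFP and of Stab2, Flt1 and Tek against untreated lie wholly below 0, but 0 of 8 markers passed after adjustment over all genes, and with normexp the points of Stab1, Stab2, Clec4g, Kdr and Flt1 in the first panel move above 0.

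Clec4g, also called LSECtin, read 4.32, 4.03 and 3.85 untreated, 4.06, 4.62 and 4.54 with AAV-GFP, and 3.51, 3.85 and 4.05 with AAV-hGRβ. The AAV-hGRβ arrays lay below the AAV-GFP arrays by a narrow margin, 4.05 in AAV-hGRβ replicate 3 against 4.06 in AAV-GFP replicate 1, and overlapped the untreated arrays. AAV-hGRβ was 0.657 times AAV-GFP (95% interval 0.46 to 0.938; log2 difference -0.61, SE 0.23; unadjusted p 0.0258, adjusted p 0.329 by limma), a difference that turned to 0.14 with normexp. Within day 1 it was -0.39 and on day 2 -1.03. From untreated, Clec4g differed by -0.26 (SE 0.23, adjusted p 0.462).

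Stab2, a scavenger receptor that takes up hyaluronan and other waste ligands, read 0.93, 1.38 and 1.08 untreated. It read 0.84, 0.86 and 0.93 with AAV-GFP and 0.87, 0.72 and 0.35 with AAV-hGRβ. Both treated groups lay at or below the lowest untreated array, untreated replicate 2, which AAV-GFP replicate 3 equalled at 2 decimals. AAV-hGRβ was 0.714 times untreated (95% interval 0.528 to 0.967; log2 difference -0.49, SE 0.19; unadjusted p 0.0333, adjusted p 0.163 by limma). Within day 1 the difference was -0.70, and between the single arrays of day 2 it was -0.06. Against AAV-GFP, Stab2 differed by -0.23 (adjusted p 0.743).

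Stab1, the related scavenger receptor that Kupffer cells and other macrophages also carry, read 2.12, 1.63 and 1.55 untreated, 1.49, 2.07 and 2.49 with AAV-GFP, and 1.67, 2.01 and 1.49 with AAV-hGRβ. The 3 groups overlapped throughout. The difference between AAV-hGRβ and AAV-GFP was -0.30 (SE 0.29, adjusted p 0.777 by limma), -0.04 within day 1 and -0.83 on day 2. From untreated Stab1 differed by -0.05, with a 95% interval of -0.69 to 0.60 that spans changes of either sign.

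Lyve1, a hyaluronan receptor of sinusoidal and lymphatic endothelium named Xlkd1 in the files, read -1.25, -0.93 and -1.81 untreated, -1.29, -0.57 and -0.57 with AAV-GFP, and -1.14, -0.93 and -1.05 with AAV-hGRβ. AAV-GFP replicates 2 and 3 were the highest arrays and untreated replicate 4 the lowest, with overlap in each comparison. Lyve1 was 0.52 higher in AAV-GFP than untreated (SE 0.27, adjusted p 0.489 by limma) and 0.23 lower in AAV-hGRβ than in AAV-GFP (adjusted p 0.835). Its other kept probe gave the same signs but varied more, with an SD of 1.42 untreated, 1.11 with AAV-GFP and 0.44 with AAV-hGRβ.

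Pecam1 had the widest spread inside its AAV-hGRβ group. It read -3.31, -3.54 and -3.90 untreated, -3.49, -3.52 and -3.13 with AAV-GFP, and -2.74, -4.41 and -3.50 with AAV-hGRβ. The highest and the lowest of all 9 arrays were AAV-hGRβ replicates 1 and 2, so the mean of this group, -3.55 ± 0.84 (SD, n = 3), describes neither. The difference from AAV-GFP was -0.17 (95% interval -1.03 to 0.69, adjusted p 0.921 by limma), and without AAV-hGRβ replicate 2 it was 0.26.

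Genes with several probes allowed a check along the transcript. Flt1 had 4 kept probes over 92.2 kb of a gene that spans 164.8 kb on chromosome 5. The main probe and a neighbour 73 bases away differed between AAV-hGRβ and untreated by -0.86 and -0.63, with the neighbour at -0.65, -0.44 and -0.63 untreated, -1.30, -0.43 and -0.69 with AAV-GFP, and -0.96, -1.33 and -1.34 with AAV-hGRβ. Another probe, 76.0 kb nearer the gene's start, differed by -0.41 and had its untreated arrays, at -2.35, -2.45 and -2.29, all above the AAV-hGRβ arrays, at -2.67, -2.61 and -3.02. The last, 92.2 kb away, was well above background on 1 untreated, 2 AAV-GFP and 3 AAV-hGRβ arrays; it was kept through AAV-hGRβ alone, where it is highest (mean -3.32 against -4.71 untreated), so its difference of 1.39 is a description. Tested as single probes, the other 3 had adjusted p-values of 0.0673, 0.157 and 0.26 by limma, and none passed. When all 4 were averaged, that last probe included, Flt1 differed from untreated by -0.13 (adjusted p 0.718) and from AAV-GFP by 0.00342 (adjusted p 0.996).

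Tek had a second kept probe 132.4 kb nearer the start of a gene of 135.9 kb on chromosome 4, well above background on 8 of 9 arrays. It read -3.76, -4.07 and -3.77 untreated, -3.49, -4.11 and -3.60 with AAV-GFP, and -3.96, -3.70 and -3.87 with AAV-hGRβ. Those groups overlapped, and AAV-hGRβ differed from AAV-GFP by -0.11 (95% interval -0.58 to 0.36) and from untreated by 0.02 (95% interval -0.45 to 0.49). The Tek difference therefore rests on the main probe alone, and whether the probes detect the same transcripts was not tested. No annotation of mm7, the build of the probe positions, was used here, so exons and untranslated regions are not assigned.

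For 2 of the kept probes the letters span more of the genome than the probe is long, as a probe across a splice junction does; they are shown because such probes read spliced RNA. The main Pecam1 probe covers chr11:106790116-106791969 (mm7, minus strand), a span of 1854 bases, and the second Stab1 probe covers chr14:28589152-28589295 (mm7, minus strand), a span of 144 bases, for 60 letters each.
Pecam1: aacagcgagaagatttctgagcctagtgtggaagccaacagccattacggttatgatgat
Stab1: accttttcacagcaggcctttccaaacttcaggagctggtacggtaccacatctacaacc
The Stab1 junction probe lies 20.4 kb from the main probe and was well above background on 1 untreated, 2 AAV-GFP and 3 AAV-hGRβ arrays. It was kept through AAV-hGRβ alone, where it is highest, with means of -3.66 against -4.42 untreated, so its difference of 0.76 is a description and is not set against that of the main probe. The remaining 5 probes, of Kdr, Flt1, Pecam1 and Clec4g, were well above background on 1 to 4 of 9 arrays and were not tested.

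**Figure D3:**
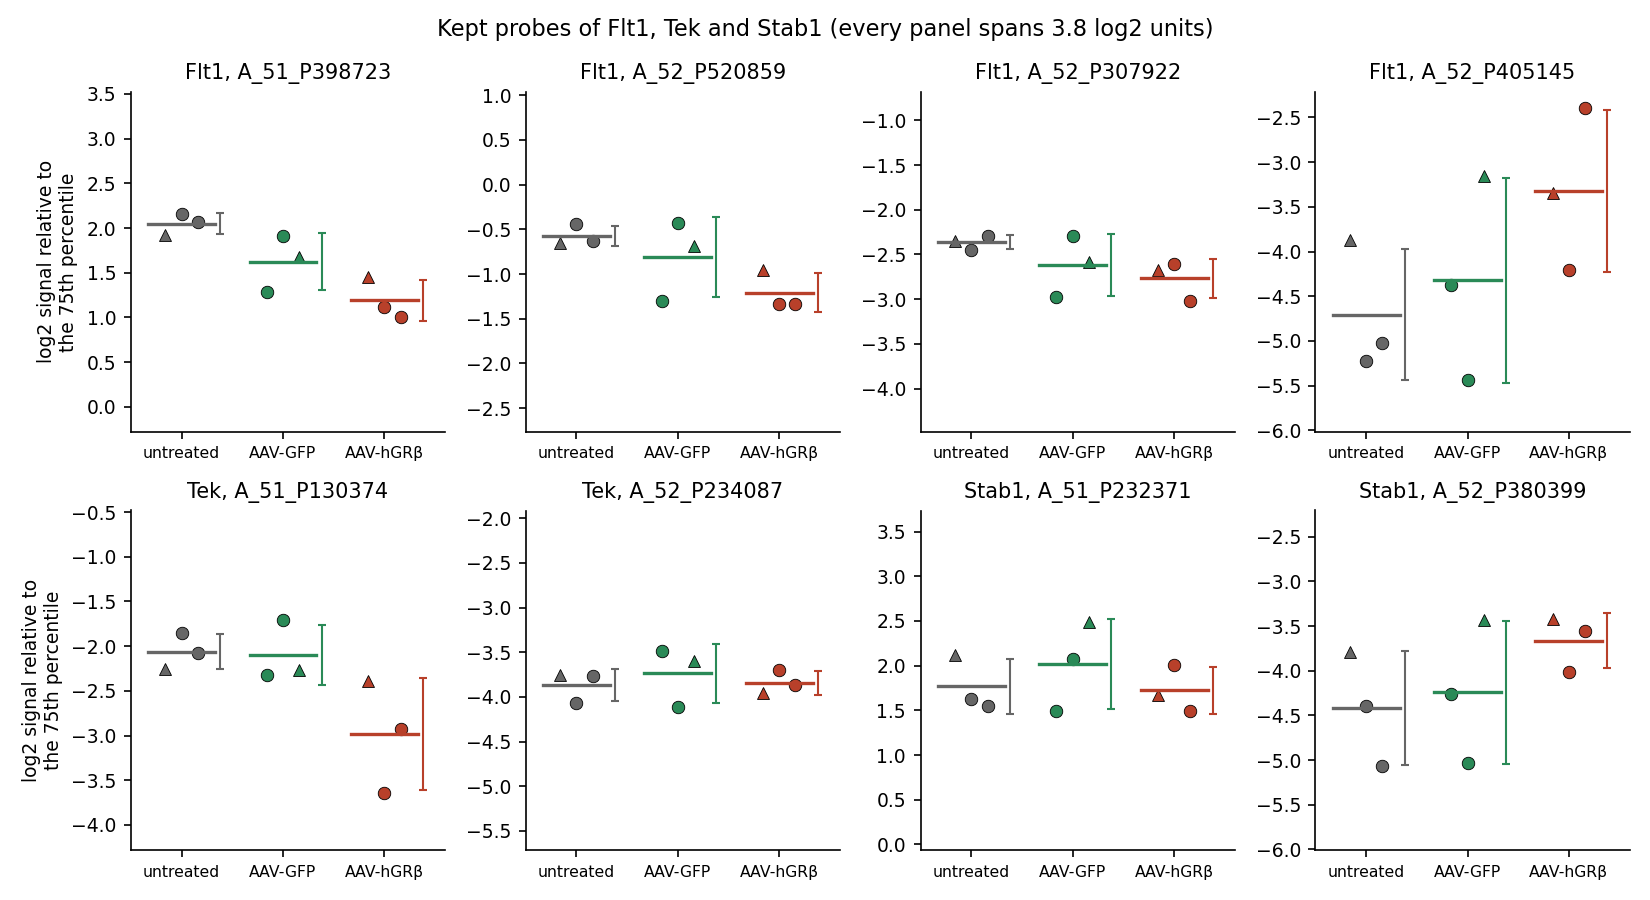
Level of each kept probe of Flt1, Tek and Stab1 on each array, as log2 signal relative to the array's 75th percentile; circles are day 1 and triangles day 2, lines are group means and bars 1 SD either side (n = 3). The first 3 Flt1 probes have their lowest mean with AAV-hGRβ and the last, kept through AAV-hGRβ alone like the second Stab1 probe, its highest; the second Tek probe shows no separation of the groups.

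Over the 8 markers, the mean of the values centred on each gene's own mean was -0.07, -0.35 and -0.29 on the AAV-hGRβ arrays. It was 0.14, 0.20 and -0.13 untreated and -0.15, 0.32 and 0.33 with AAV-GFP. AAV-hGRβ replicates 2 and 3 were the lowest arrays, but AAV-hGRβ replicate 1 lay above AAV-GFP replicate 1 and untreated replicate 4. The genes whose profile over the 9 arrays was most like this mean were Fam167b (Pearson r 0.956), Kitl (0.956), Glce (0.945), Dapk2 (0.941) and Fgd5 (0.932). The arrays share scan days and groups, and these 5 genes passed no comparison here.

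Of 26 pan-endothelial genes tested, 0 passed against AAV-GFP (0.899% of all genes), 22 were below 0 (47.3% of all genes) and the median was -0.23, beside 0.02 for all genes. Against untreated 1 of 26 passed, a share near the 3.28% of all genes: Cav1, the coat protein of caveolae, fell by 1.26 (adjusted p 0.0484, limma), with 0.36, 1.06 and 0.20 untreated and -0.40, -1.01 and -0.74 with AAV-hGRβ. That call was lost when any array other than untreated replicate 2 was left out, with adjusted p-values up to 0.183. Of 18 further sinusoidal genes, 0 passed in any comparison; their median against AAV-GFP was -0.22, but 0.15 within day 1 and -0.67 on day 2, and against untreated it was 0.21. The sign against AAV-GFP turned with normexp, to 0.09, and that against untreated with median scaling, to -0.12, and quantile normalization, to -0.16. The smallest p-values there belonged to Tspan7 against AAV-GFP (-0.57, adjusted p 0.198) and Dnase1l3 against untreated (-0.88, adjusted p 0.0857), neither of which passed. Against untreated 10 of the 18 were above 0 and 8 below (43.5% of all genes below). The next smallest p-values there had opposite signs, Ehd3 at -1.02 and Clec1b at 0.92 (adjusted p 0.0946 and 0.0973, limma).

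Among 15 ligands, coreceptors and regulators of the VEGF and angiopoietin receptors, 12 were below 0 against AAV-GFP (47.3% of all genes). Their median was -0.17, beside 0.02 for all genes, and 0 passed (0.899% of all genes). Against untreated 7 were above 0 and 8 below (43.5% of all genes below), with a median of -0.03 beside 0.09 for all genes. There 1 of 15 passed (3.28% of all genes): Nrp2, a coreceptor that binds VEGF family ligands beside Kdr and Flt4. Its level was 2.38, 2.82 and 2.52 untreated, 2.11, 2.21 and 2.49 with AAV-GFP, and 1.48, 1.38 and 1.19 with AAV-hGRβ, so that the AAV-hGRβ arrays lay below all others. It fell by 1.22 against untreated (SE 0.19, adjusted p 0.0146, limma) and differed from AAV-GFP by -0.92 (adjusted p 0.0684). Without AAV-hGRβ replicate 3, untreated replicate 3 or untreated replicate 4 it no longer passed, with adjusted p-values up to 0.0813; on day 2 the single arrays differed by -0.90. Of 9 Notch pathway genes, 4 were above 0 and 5 below against untreated (43.5% of all genes below), with a median of -0.24. There 1 of 9 passed (3.28% of all genes). This was Heyl, a Notch target, which fell by 0.83 (adjusted p 0.0382, limma) and differed between AAV-GFP and untreated by -0.82 (adjusted p 0.489). Hey1, of the same list, went the other way and did not pass. It differed by 1.09 from untreated and by 0.83 from AAV-GFP (adjusted p 0.0978 and 0.359, limma). The Heyl call was lost without untreated replicate 3 or 4, AAV-GFP replicate 2 or any AAV-hGRβ array, with adjusted p-values up to 0.164. Of 9 genes for signals that endothelium sends to hepatocytes, 0 passed in any comparison. The shares of all genes were 0.899% against AAV-GFP, 3.28% against untreated and 0% between AAV-GFP and untreated. Against AAV-GFP the median of the 9 was -0.48 (-0.14 within day 1 and -0.59 on day 2), beside 0.02 for all genes. Against untreated the median of the 9 was 0.13, beside 0.09 for all genes, and between AAV-GFP and untreated it was 0.12. The smallest p against AAV-GFP was that of Inhbb (-0.95, adjusted p 0.123, limma). Differences over the kept probes of Inhbb ran from -0.95 to 0.33.

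Among the endothelial lists, rises past the threshold were in those of continuous endothelium and of activation. In whole liver, which cells these RNAs came from was not tested. Of 14 genes of continuous or portal endothelium, 2 passed against AAV-GFP (0.899% of all genes). These were Ly6a and Ly6c1, surface proteins that lymphocytes also carry and members of a family of near copies. They rose by 3.98 and 2.84 (adjusted p 0.00378 and 0.00645, limma). The list's median was -0.08. Against untreated they rose by 4.15 and 3.34, and all 4 calls held without any single array. Rbp7, a retinol-binding protein, also passed against untreated, which makes 3 of 14 (3.28% of all genes passed). It was kept through AAV-hGRβ alone, the group where it is highest (mean -3.52 against -5.45 untreated), so its difference of 1.93 is a description. The Rbp7 call was lost without AAV-GFP replicate 2, AAV-hGRβ replicate 1 or 3, or untreated replicate 3 or 4 (adjusted p up to 0.146, limma). Its sign turned with normexp, to -0.5. Of 13 activation genes, 1 passed against AAV-GFP (0.899% of all genes). This was Cd274, an immune checkpoint ligand, which rose by 1.19 (adjusted p 0.039, limma). That call held without AAV-hGRβ replicate 2 and was lost without any other single array (adjusted p up to 0.162, limma). Against untreated 3 of the 13 passed (3.28% of all genes). Icam1 (0.89), Vcam1 (1.67) and Cd274 (0.95) rose, with adjusted p-values of 0.0357, 0.0447 and 0.0468 (limma). Each call was lost without untreated replicate 3 or 4 or AAV-hGRβ replicate 1 or 3. Icam1 and Vcam1 were also lost without AAV-hGRβ replicate 2, Icam1 without AAV-GFP replicate 2, Vcam1 without AAV-GFP replicate 3 and Cd274 without any AAV-GFP array, with adjusted p-values up to 0.183.

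Markers of other liver cells moved beside these values. Of all genes, 47.3% lay below 0 against AAV-GFP, and 3.28% passed against untreated. T and NK cell markers had 4 of 10 that rose past the threshold against AAV-GFP (0.899% of all genes passed), all 10 above 0 and a median of 1.72 (0.07 with normexp), with a summed level of 2.21 to 3.47 in AAV-hGRβ, 0.73 to 1.15 in AAV-GFP and 0.47 to 1.10 untreated. Of these, Cd8a and Ncr1 were kept through AAV-hGRβ alone, the group where they are highest, and both enter the values above. Cd8a is among the 4, with a mean of -1.20 against -5.55 in AAV-GFP, and its rise is a description. The Gzma call was lost without AAV-GFP replicate 1 or AAV-hGRβ replicate 1 (adjusted p up to 0.0642, limma). That of Gzmb was lost without any array other than AAV-hGRβ replicate 2 or untreated replicate 2 (adjusted p up to 0.134, limma). Kupffer cell markers had 0 of 12 past the threshold against AAV-GFP, with all 12 above 0, a median of 0.52 and summed levels of 7.72 to 8.24 against 6.52 to 7.44; against untreated, Clec4f rose by 1.17 and Cd5l by 1.26 (adjusted p 0.0366 and 0.0439, limma). Both calls were lost without AAV-GFP replicate 2, any AAV-hGRβ array, or untreated replicate 3 or 4, and Cd5l also without AAV-GFP replicate 3 (adjusted p up to 0.183, limma). Hepatocyte markers had 0 of 10 past the threshold, all 10 below 0 and a median of -0.29, beside -0.34 for the 8 endothelial markers; with normexp the medians were 0.44 and 0.07. The summed level of the 8 endothelial markers was 4.51 to 4.71 in AAV-hGRβ, 4.76 to 5.32 in AAV-GFP and 4.76 to 5.11 untreated. Platelet markers, which matter for Pecam1, had 0 of 7 past the threshold against AAV-GFP and a median of 0.39 (-0.55 with normexp). Of these, Gp1bb was kept through AAV-hGRβ alone, the group where it is highest, and enters both values. The lymphatic marker Pdpn was not well above background on any array, with 0 of 3 tested lymphatic genes past the threshold. Stellate cell markers had 0 of 11 and bile duct markers 0 of 5 past the threshold against AAV-GFP, with medians of -0.04 and 0.33 that turned with normexp to 0.1 and -0.51. The part of these cells in the endothelial values was not tested.

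**Figure D4:**
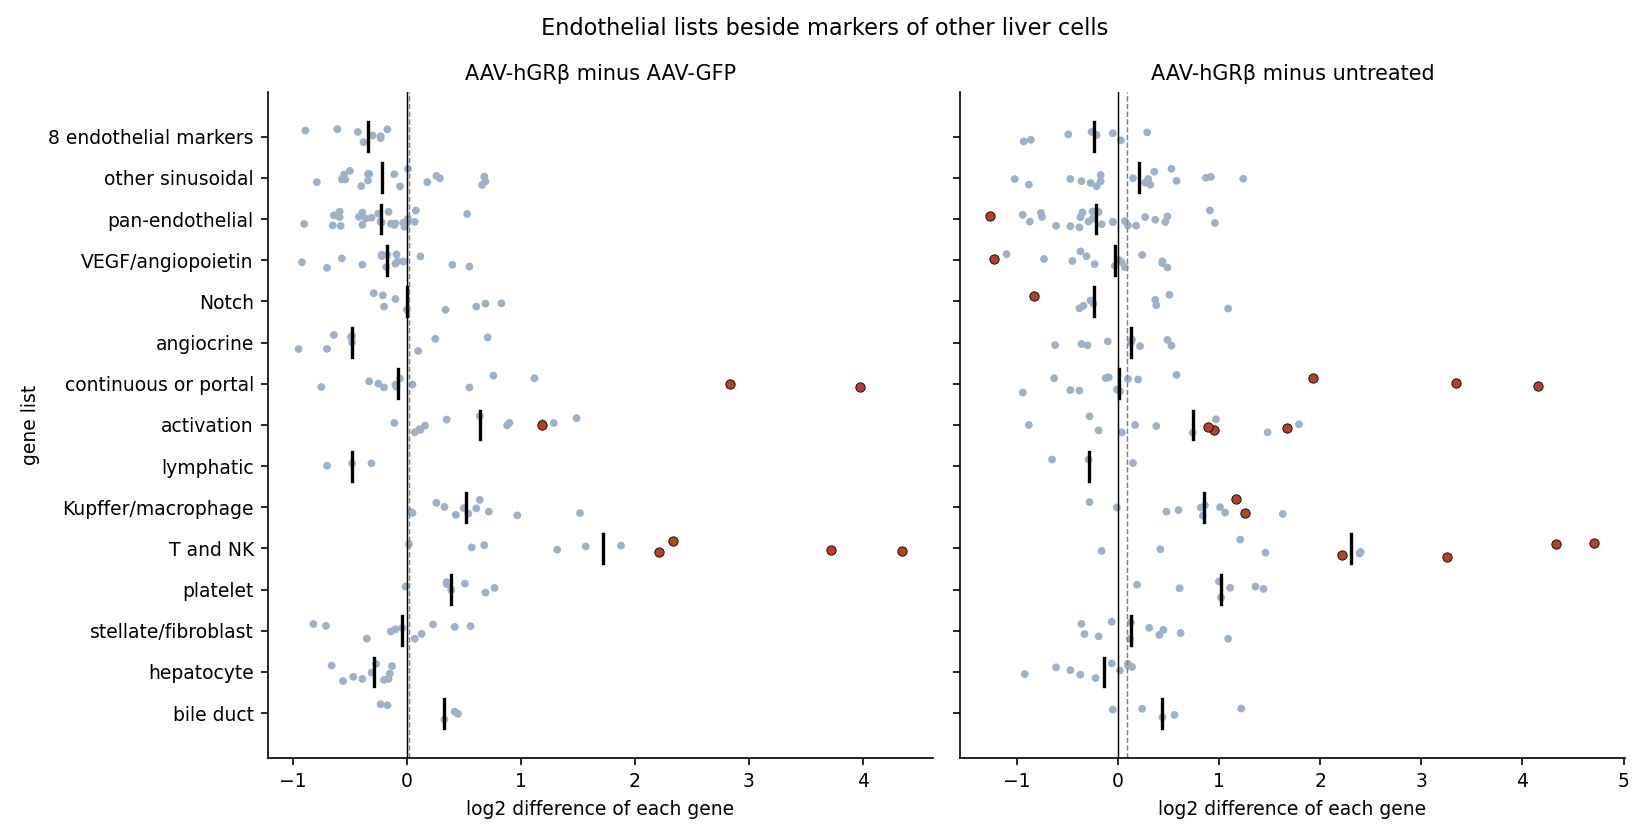
Log2 difference of each tested gene by list, AAV-hGRβ minus AAV-GFP on the left and AAV-hGRβ minus untreated on the right; red points passed an adjusted p of 0.05 (limma), black bars are list medians and the dashed line is the median of all genes. The endothelial markers have a median of -0.34 on the left and -0.24 on the right, while T and NK cell markers have 1.72 and 2.30. With normexp both left medians are 0.07. Of the red points, Cd8a and Rbp7 were kept through AAV-hGRβ alone and are a description.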

How the data were processed

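Liver RNA of 9 samples was measured on single-colour Agilent mouse arrays, with 500 ng of RNA labelled per the labels' protocols. The authors deposited the scanner's spot intensity files, read with Feature Extraction software (9.5.3.1 per the file headers), with probe positions on mm7. A value table of the whole series, also deposited, repeats these intensities on the linear scale without centring (array medians 34.2 to 75.6, largest absolute difference 0) and was not used further.

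From the 45018 spots, control spots (all but 43379) and spots marked as outliers were left out. The deposited processed intensities, which the scanner software had background-subtracted, were taken to log2 here and each array was set to 0 at its 75th percentile. Spots of 1 probe were averaged. Probes were kept when well above background on all 3 arrays of a group, and for the 5475 genes with several kept probes the one with the highest mean stood for the gene. Genes were named through RefSeq GRCm38.p6 tables: 22951 probes by accession, 6659 by symbol, 3109 by an older symbol, 294 by identifier and 8161 by the name in the files. Groups came from the sample labels. The 3 comparisons were fitted in limma 3.58.1 (R 4.3.3) on the 9 arrays together (residual degrees of freedom: 6), with Benjamini-Hochberg adjustment at 0.05 over 16792 genes; the number of arrays limits the precision. Tested on simulated data for AAV-hGRβ against AAV-GFP (16700 genes), the fit called 36% of 100 genes changed by 1 on the log2 scale, 74% of 100 changed by 2, and 7 unchanged genes. The simulated arrays were drawn independently, without slide or day effects, so these values do not cover such effects in the real arrays.

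Named genes are all 8 markers, up to 3 passing genes with the smallest p per other list and comparison (the smallest p where none passed), and the 5 genes with the most similar profile. The markers and lists were chosen with earlier results of these data known. Alternatives varied background correction, scaling, the filter, the probe per gene, scan day, slide, replicate number and single arrays.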

Additional observations from a re-analysis of the deposited data

How the results depend on the processing

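Over the alternatives that give a test, the 8 markers gave 184 values between AAV-hGRβ and AAV-GFP, of which 0 passed, and 176 between AAV-GFP and untreated, of which 0 passed. For AAV-hGRβ against untreated 6 of 176 passed, 5 for Flt1 and 1 for Tek. In that comparison the number of markers called, 0 in the report, was 1 with bright local backgrounds replaced before normexp, 1 with scan day as a block, 1 with probes well above background on all 9 arrays, 2 on scan day 1 alone, and 0 to 1 without single arrays (1 without untreated replicate 2). In this order the settings called 914, 1264, 703 and 4770 genes in all, and 2040 without untreated replicate 2, against 551 in the report.

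Genes called between AAV-hGRβ and AAV-GFP, 151 in the report, were 95 with median scaling, 30 with no filter, 18 with normexp, 75 with only the arrays of the 2 groups, 3 on day 1 alone, 258 with day as a block, 0 with slide as a fixed block (which rests on 1 slide), 76 with slide as a random block (consensus correlation 0.463), and 40 to 165 without single arrays. Between AAV-hGRβ and untreated, 551 became 84 with no filter, 49 with normexp (all 49 higher), 914 with bright backgrounds replaced (536 higher), 307 with 2 groups, 4770 on day 1 alone (2927 higher), 1264 with day as a block, 59 with slide as a random block (55 higher), and 94 to 2040 without single arrays. The 703 genes called with probes well above background on all 9 arrays held 436 higher. Between AAV-GFP and untreated, 0 became 4 with median scaling, 1 with quantile normalization, 1 on day 1 alone, 1 with day as a block, and 0 to 1 without single arrays. The cause of these changes was not tested.

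With the replicate block, 2 genes were called between AAV-hGRβ and AAV-GFP and 0 between AAV-hGRβ and untreated; Pecam1 turned to -0.53 against untreated, and Tek to 0.06 between AAV-GFP and untreated. Deviations of same-numbered arrays correlated at 0.01, 0.24 and 0.01 (AAV-hGRβ and AAV-GFP), -0.29 and -0.32 (AAV-GFP and untreated), and -0.21 and 0.08 (AAV-hGRβ and untreated), so the numbers were not taken as pairs. The report called 0 of 8 markers in each comparison, so the block had no marker call to remove, and it added none.

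Of the differences that changed sign, only that of Rbp7, a gene kept through AAV-hGRβ alone, had passed in the report. With normexp, AAV-hGRβ against AAV-GFP gave Clec4g 0.14, Flt1 0.04, Kdr 0.16, Stab1 0.23, Stab2 0.1 and Trf 0.25. Against untreated normexp gave Clec4g 0.31, Kdr 0.14, Stab1 0.28, Pecam1 -0.66, Rbp7 -0.5 and Epcam -0.15, and between AAV-GFP and untreated Kdr -0.01 and Tek 0.04. With the mean of probes, Flt1 was 0.00342 and Stab1 0.14 against AAV-GFP, Stab1 0.36 against untreated, and Tek 0.04 between AAV-GFP and untreated. Median scaling gave Lyve1 -0.04 and Pecam1 -0.3 against untreated and Spp1 -0.00337 against AAV-GFP, and quantile normalization Pecam1 -0.34 against untreated. On day 1 alone Clec4g was 0.01, Stab1 0.16 and Pecam1 -0.23 against untreated. With slide as a fixed block Pecam1 was 0.39 against AAV-GFP, and as a random block 0.03. Without single arrays, Pecam1 ran from -0.57 to 0.26 against AAV-GFP and from -0.37 to 0.46 against untreated, Stab1 from -0.19 to 0.13 against untreated, and between AAV-GFP and untreated Kdr ran from -0.00321 to 0.42 and Tek from -0.24 to 0.07. Slide as a fixed block could not be fitted for the comparisons with untreated, and day 2 alone has 1 array per group and no test.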
